A study of Oryza sativa with 12 samples.

Results

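The distal ends of rice chromosomes 11 and 12 are described here across genes, as the identifiers numbered LOC_Os11g01010 to LOC_Os11g03000 and LOC_Os12g01010 to LOC_Os12g03000. They were chosen by these numbers alone and by no measured value, though with earlier results of these data known. Of 33780 identifiers listed for either cultivar, 276 are members, 134 on chromosome 11 and 142 on chromosome 12. RNA-seq was performed on the aerial parts of 3-week-old seedlings, with 3 libraries in each of 4 groups. These are 93-11 (Indica) under heat stress (HS), 93-11 under normal conditions, Nip (Nipponbare, Japonica) under HS and Nip under normal conditions. HS meant 36 h at 45 °C in humid air with light of 60 to 80 μmol m-2 s-1, whereas seedlings were raised in light of 800 μmol m-2 s-1. A contrast of HS with normal libraries therefore holds light and humidity as well as temperature, and these cannot be told apart. The study's methods call the 3 libraries of a group biological replicates, without saying how many plants went into each.

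The tips of the short arms of chromosomes 11 and 12 are known as the most recent large segmental duplication of the rice genome. The genes there lie largely in the same order on both chromosomes, and many keep a close copy on the other arm. Copies of this kind are also known to exchange sequence by gene conversion, so that short reads may not always tell one copy from the other. In the data used here a gene has only its identifier, in which the chromosome and the rank along it are written. No table used here pairs these identifiers with gene names, proteins, sequences or positions, so copies were not paired by sequence and the duplication itself was not checked. Where the chromosomes are compared gene by gene, identifiers of the same number, or of stated neighbouring numbers, are set side by side with no claim that they are copies. The leaf markers fixed for the check of tissue could not be named for the same reason, and the tissue was not checked.

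Expression is given as FPKM, fragments scaled by transcript length and by the mapped fragments of the library, which can be compared between genes of a library. The cultivars were aligned to different genomes, so levels set across them also compare those genomes. The deposited values were used with no further scaling. Their sums per library were 794246 to 810922 in 93-11 HS, 582896 to 617044 in 93-11 normal, 552167 to 561203 in Nip HS and 785851 to 798491 in Nip normal libraries. Pearson's r of log2(FPKM + 1) between replicates was at least 0.990 in every group. The files hold no counts, so the precision of each value comes from the 3 libraries of its group. Changes in a tissue's RNA can come from fewer cells of a type or from less RNA per cell, and bulk libraries cannot tell these apart.

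Many members were listed for only one of the cultivars. The 93-11 libraries listed 247 of the 276 members and the Nip libraries 240, and 211 were listed for both. The 36 identifiers found only in 93-11 and the 29 found only in Nip made up 23.6% of the members, against 22.3% of the 431 identifiers of the next stretch of the same arms (to LOC_Os11g06000 and LOC_Os12g06000) and 26.0% of all other LOC_Os identifiers. The share was 27.6% on chromosome 11 and 19.7% on chromosome 12. Among those listed only in 93-11, 21 reached a group mean of 1 FPKM and 5 one of 10 FPKM, and the highest was LOC_Os11g02370 with 145 FPKM in normal libraries. Among those listed only in Nip, 16 reached 1 FPKM and 6 reached 10 FPKM, and LOC_Os11g02389 was the highest with 1554 FPKM in normal libraries. Each cultivar was aligned to its own genome, and why an identifier is not listed is not given. LOC_Os12g01955 is listed for 93-11 at a mean that rounds to 0.0 FPKM, so a gene without signal can still be listed. For identifiers that are not listed, a missing gene model and a silent gene cannot be told apart.

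The typical member was expressed at a low level. The median over listed members was 2.16 FPKM in 93-11 HS, 4.03 in 93-11 normal, 4.12 in Nip HS and 5.30 in Nip normal libraries, against 2.61, 3.78, 4.76 and 5.09 FPKM over all LOC_Os identifiers in the same groups. The group mean reached 100 FPKM for 8 members in 93-11 HS, 9 in 93-11 normal, 9 in Nip HS and 16 in Nip normal libraries. In the same order these were 3.24%, 3.64%, 3.75% and 6.67% of the listed members. Over all LOC_Os identifiers the shares were 4.09%, 3.42%, 2.78% and 4.38%. The ends of chromosomes 11 and 12 together held 0.544% to 0.547% of all FPKM in 93-11 HS libraries, against 0.993% to 1.005% in 93-11 normal libraries. In Nip they held 0.703% to 0.726% in HS libraries and 1.512% to 1.531% in normal libraries. The groups did not overlap in either cultivar, and most of the difference sat in 2 short runs of identifiers that are described further on.

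Upon HS, more members fell than rose in both cultivars, although in Nip this turned round when the libraries were rescaled to a common sum. Calls were made with limma on log2(FPKM + 1), among genes that reached 1 FPKM in 3 or more libraries. A call needed an adjusted p (Benjamini-Hochberg) below 0.01 and a change of 1 or more on the log2 scale. In 93-11, 36 of the 182 members tested were upregulated and 60 were downregulated, or 19.8% and 33.0%. Over all genes tested in 93-11 these shares were 22.7% up and 27.5% down. In Nip, 13 of 185 members were upregulated (7.03%) and 44 were downregulated (23.8%), beside 9.69% up and 17.8% down over all genes tested in Nip. The median log2 fold change of the members was -0.15 in 93-11, against 0.03 over all genes, and -0.16 in Nip, against -0.04. HS and normal libraries did not overlap for 150 members in 93-11 (82.4%, beside 87.7% of all genes) and for 146 in Nip (78.9%, beside 81.9%).

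The counts were close on both ends. In 93-11, 20 members of the chromosome 11 end rose and 30 fell of 89 tested, and 16 rose and 30 fell of 93 on chromosome 12. In Nip, 8 rose and 22 fell of 85 on chromosome 11, and 5 rose and 22 fell of 100 on chromosome 12. In the next stretch of both arms, 57 rose and 54 fell of 235 in 93-11, and 29 rose and 38 fell of 253 in Nip. The balance of rises and falls depended on scale. With each library rescaled to sum to 1000000, which moved the median of all genes by -0.41 in 93-11 and by 0.48 in Nip on the log2 scale, 27 members rose and 75 fell in 93-11 (26.5% of calls up, against 37.5% without rescaling) and 35 rose and 31 fell in Nip (53.0% up, against 22.8%). Over all genes tested, the rescaled calls in 93-11 were 16.3% up and 35.2% down (31.6% of calls up, against 45.3% without rescaling). In Nip they were 23.5% up and 11.9% down (66.4% of calls up, against 35.3%). The turn in Nip was thus also seen over all genes.

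**Figure D1:**
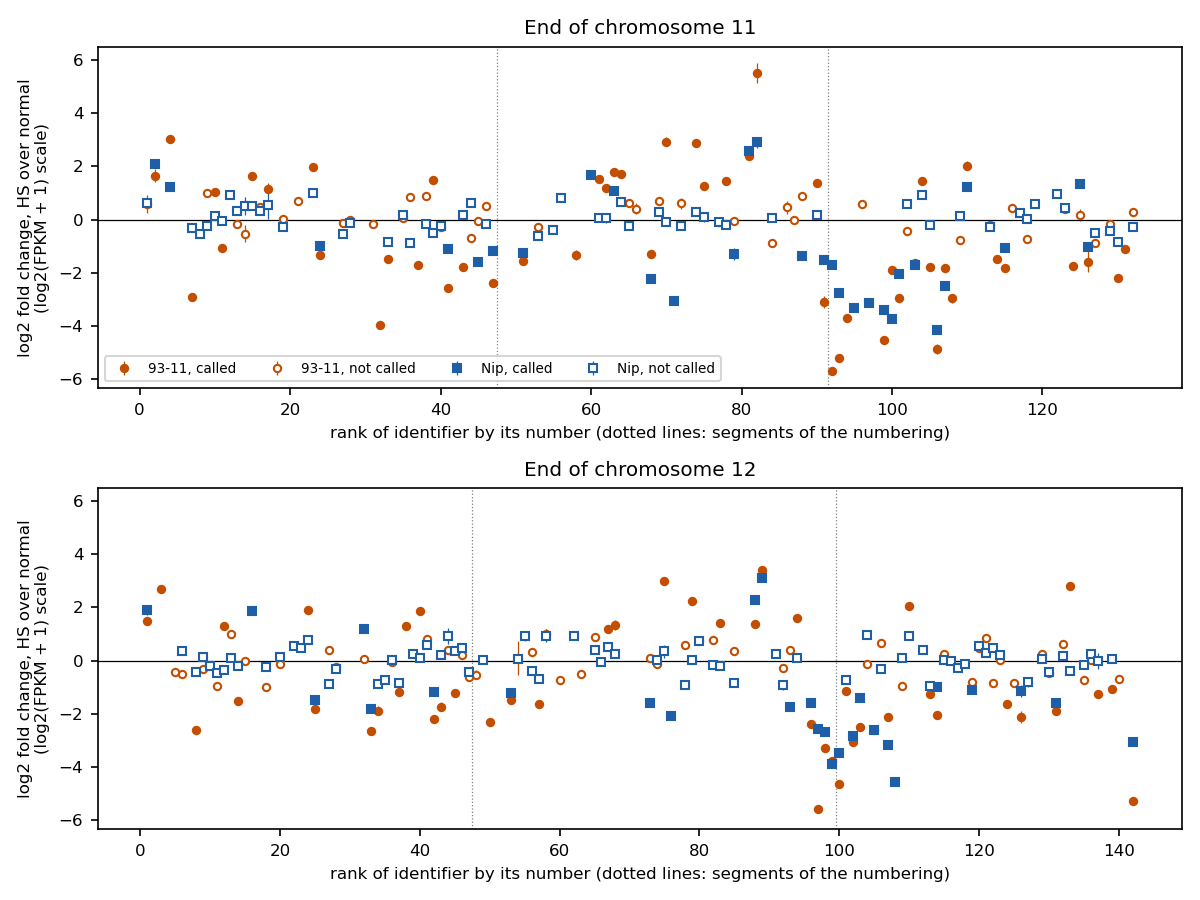
Log2 fold change of HS over normal (vertical axis, log2(FPKM + 1) scale, bars for the standard error) of each tested member, in order of its number along the end of chromosome 11 (top) and 12 (bottom). Circles stand for 93-11 and squares for Nip, filled where the member was called, and the dotted lines mark the segments of the numbering. The last segment holds 4 rises and 31 falls in 93-11 and 2 rises and 23 falls in Nip.

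The falls were not spread evenly along the ends, as the plot of fold change against rank shows. The numbering was cut into 3 segments on each chromosome, ending on chromosome 11 at LOC_Os11g01660, LOC_Os11g02330 and LOC_Os11g03000, and counts were taken over both chromosomes. In the first segment 13 members rose and 18 fell of 64 in 93-11, and 5 rose and 7 fell of 64 in Nip. In the middle segment 19 rose and 11 fell of 56 in 93-11, and 6 rose and 14 fell of 58 in Nip. In the last segment 4 rose and 31 fell of 62 in 93-11, and 2 rose and 23 fell of 63 in Nip. Falls thus reached 50.0% of the tested members of the last segment in 93-11 and 36.5% in Nip, with median log2 fold changes of -1.02 and -0.30. Over all genes tested, 27.5% fell in 93-11 and 17.8% in Nip. In 93-11 the last segment of chromosome 11 had 17 falls of 30 and that of chromosome 12 had 14 falls of 32. In Nip these were 12 of 28 and 11 of 35. Without the high runs described next, the last segment still had 26 falls of 56 in 93-11 and 17 of 57 in Nip. Under rescaling to a common sum the last segment, runs included, had 4 rises and 40 falls of 62 in 93-11, and 9 rises and 17 falls of 63 in Nip. The rescaled shares over all genes tested were 16.3% up and 35.2% down in 93-11, and 23.5% up and 11.9% down in Nip.

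A short run on each end carried, summed over both ends, most of the ends' FPKM in normal libraries and fell steeply upon HS. On chromosome 11 the run spans LOC_Os11g02350 to LOC_Os11g02424, with 6 identifiers listed in 93-11 and 5 in Nip, and on chromosome 12 it spans LOC_Os12g02300 to LOC_Os12g02340, with 4 identifiers in each cultivar. Both runs were delimited after their values were seen, and whether their genes are copies of each other was not tested. In 93-11 the chromosome 11 run summed to 76.7 ± 3.39 FPKM in HS libraries and 2087 ± 76.8 FPKM in normal libraries (SD, n = 3 each), and the chromosome 12 run to 108 ± 10.4 FPKM in HS and 1655 ± 45.4 FPKM in normal libraries. In Nip the chromosome 11 run summed to 559 ± 15.9 FPKM in HS and 4513 ± 43.3 FPKM in normal libraries, and the chromosome 12 run to 546 ± 9.21 FPKM in HS and 4038 ± 81.3 FPKM in normal libraries. In each cultivar and condition the runs on both chromosomes thus lay within 1.41-fold of each other. Their normal level was 27.2 times the HS level on chromosome 11 and 15.3 times on chromosome 12 in 93-11, and 8.07 times and 7.39 times in Nip. Together the runs made up 4.21% of the ends' FPKM in 93-11 HS and 62.8% in 93-11 normal libraries, and 27.9% in Nip HS and 71.0% in Nip normal libraries. Without them the ends held 0.523% of all FPKM in 93-11 HS libraries and 0.371% in 93-11 normal libraries, and 0.514% in Nip HS and 0.443% in Nip normal libraries. As deposited FPKM, the ends without the runs summed to 4204 ± 31.5 in 93-11 HS and 2213 ± 57.5 in 93-11 normal libraries, and to 2857 ± 77.9 in Nip HS and 3498 ± 46.6 in Nip normal libraries. Without the runs, the ends were thus higher in HS libraries on both scales in 93-11, and in Nip as a share of all FPKM but not as a sum.

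**Figure D2:**
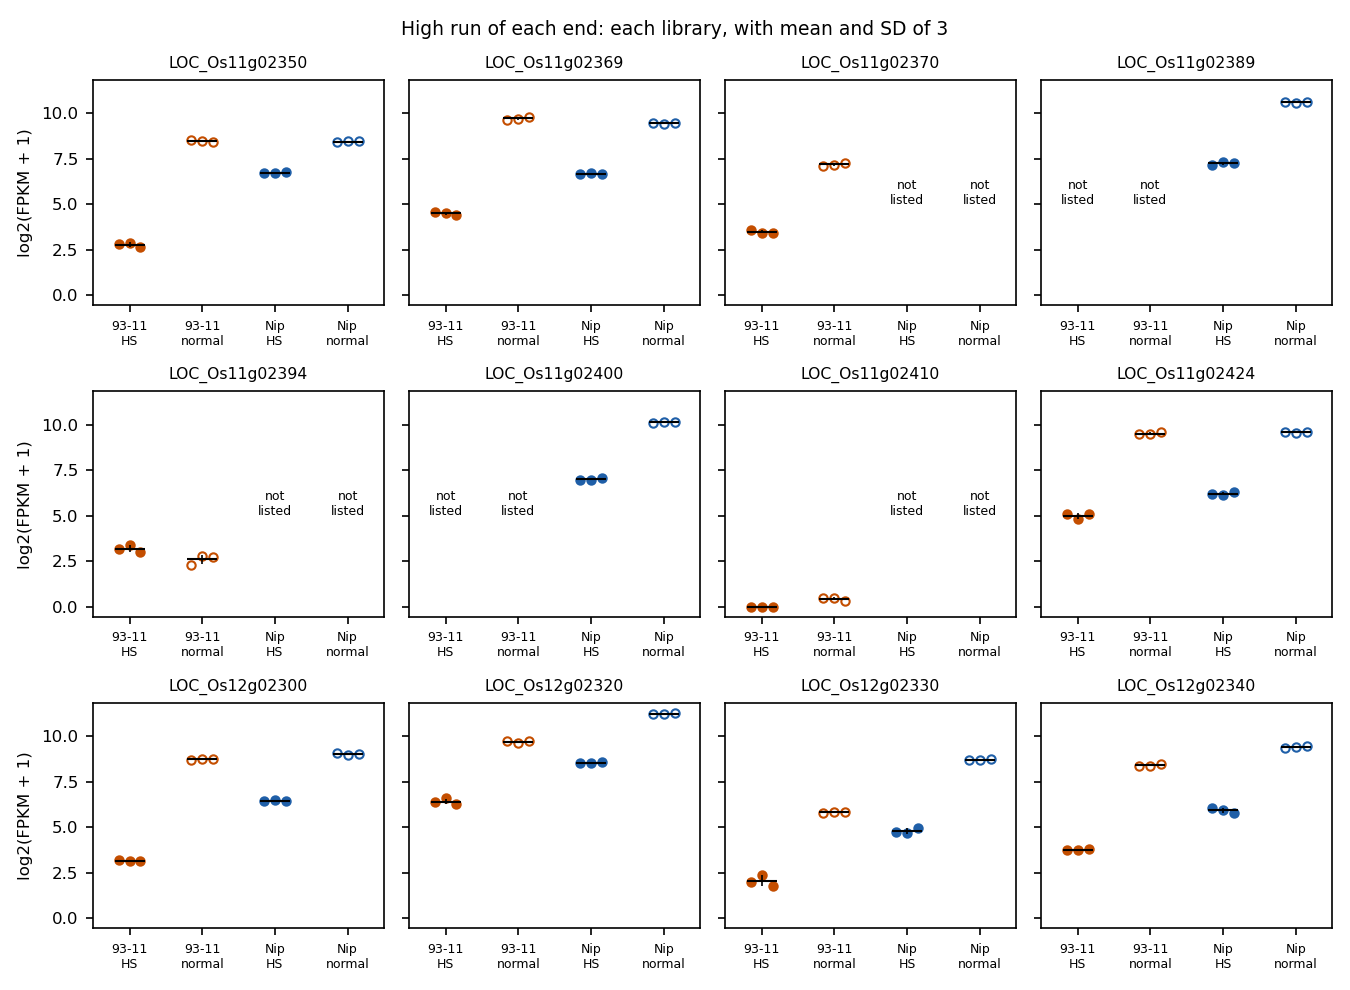
Expression as log2(FPKM + 1) of the identifiers of the high runs of chromosome 11 (first 8 panels) and chromosome 12 (last 4 panels) in 93-11 HS, 93-11 normal, Nip HS and Nip normal libraries. Points are single libraries, filled for HS, and the lines give the mean and SD of 3 libraries. HS libraries lie below normal libraries wherever the gene is listed, except for LOC_Os11g02394, which is higher in 93-11 HS libraries, and LOC_Os12g02320 in Nip normal libraries, at 2410.3 FPKM on average, is the highest value plotted.

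Within the runs, all identifiers above 20 FPKM in some group fell in each cultivar that lists them. LOC_Os11g02350 was at 6.14, 6.32 and 5.15 FPKM in 93-11 HS libraries, against 364, 359 and 344 FPKM in 93-11 normal libraries (limma log2 fold change -5.70, SE 0.07, adjusted p = 5.538e-11). In Nip it was at 103, 106 and 108 FPKM in HS and 342, 349.7 and 349 FPKM in normal libraries (limma log2 fold change -1.71, SE 0.03, adjusted p = 4.863e-10). Its normal levels were thus close in the cultivars, and the fall was steeper in 93-11 (difference of log2 fold changes -3.99, SE 0.08, limma adjusted p = 2.887e-13). LOC_Os12g02300 had 8.25, 7.73 and 7.65 FPKM in 93-11 HS libraries, against 421, 428 and 438 FPKM in 93-11 normal libraries (limma log2 fold change -5.60, SE 0.04, adjusted p = 1.595e-11). In Nip it had 87.3, 89.4 and 86.0 FPKM in HS and 545, 506 and 527 FPKM in normal libraries (limma log2 fold change -2.57, SE 0.03, adjusted p = 1.687e-10). No library of either treatment overlapped with the other, and again the fall was steeper in 93-11 (difference of log2 fold changes -3.03, SE 0.05, limma adjusted p = 1.436e-13).

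The member of highest level of all was LOC_Os12g02320. It stood at 366, 364 and 385 FPKM in Nip HS libraries, against 2397, 2366 and 2468 FPKM in Nip normal libraries (limma log2 fold change -2.70, SE 0.03, adjusted p = 9.582e-11). In 93-11 it had 81.4, 95.3 and 76.8 FPKM in HS and 849.9, 792 and 850.5 FPKM in normal libraries (limma log2 fold change -3.29, SE 0.08, adjusted p = 1.423e-09). This was the least steep fall of the chromosome 12 run in 93-11. LOC_Os12g02330 was much lower in 93-11, with 3.19 ± 0.889 FPKM in HS and 55.6 ± 1.44 FPKM in normal libraries, than in Nip, with 27.0 ± 3.19 FPKM in HS and 420.2 ± 2.15 FPKM in normal libraries (SD, n = 3 each). Its fold changes were nevertheless close, at -3.78 and -3.92 on the log2 scale, and differed by 0.14 (standard error 0.17, adjusted p = 0.4438, limma), but under rescaling LOC_Os12g02330 had a called difference of the other sign (-0.87, adjusted p = 0.0003654, limma). LOC_Os12g02340, the last of the run, was at 12.6 ± 0.286 FPKM in 93-11 HS and 339 ± 12.4 FPKM in 93-11 normal libraries, and at 60.4 ± 5.69 FPKM in Nip HS and 681 ± 26.9 FPKM in Nip normal libraries.

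On chromosome 11, LOC_Os11g02369 had 22.6, 22.2 and 19.9 FPKM in 93-11 HS and 800.0, 837 and 903 FPKM in 93-11 normal libraries, with a log2 fold change of -5.23, against -2.78 in Nip. LOC_Os11g02424 had 33.0, 27.2 and 32.7 FPKM in 93-11 HS and 725, 711 and 767 FPKM in 93-11 normal libraries. In Nip, LOC_Os11g02424 had 71.1, 70.1 and 78.1 FPKM in HS and 787, 762 and 789.9 FPKM in normal libraries. Both genes reached similar levels in the normal libraries of the cultivars, while in HS libraries they were lower in 93-11. The highest identifiers of this run in Nip, LOC_Os11g02389 with 152 ± 9.43 FPKM in HS and 1554 ± 16.8 FPKM in normal libraries and LOC_Os11g02400 with 127 ± 4.59 FPKM in HS and 1131 ± 27.8 FPKM in normal libraries, are not listed for 93-11. LOC_Os11g02370, with 10.1 ± 0.644 FPKM in HS and 145 ± 8.81 FPKM in normal libraries of 93-11, is not listed for Nip. If near-identical genes of the runs share reads, their separate levels are less certain than the sums. LOC_Os11g02394 and LOC_Os11g02410 also lie in the run and are listed in 93-11 only. LOC_Os11g02394 did not follow it, with 8.11 ± 1.17 FPKM in HS and 5.13 ± 1.05 FPKM in normal libraries. LOC_Os11g02410 was listed at 0 in the 3 HS libraries and had 0.393, 0.403 and 0.260 FPKM in normal libraries, too low to be tested.

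Outside the runs, LOC_Os12g02980, LOC_Os11g02520, LOC_Os12g02469 and LOC_Os11g02440 fell steeply, and all lie in the last segment. LOC_Os12g02980 had 0.692, 0.984 and 0.605 FPKM in 93-11 HS libraries, against 67.7, 68.8 and 65.8 FPKM in 93-11 normal libraries (limma log2 fold change -5.29, SE 0.09, adjusted p = 2.649e-10). Nip libraries gave 17.1, 20.8 and 22.1 FPKM in HS and 174, 178 and 176 FPKM in normal libraries (limma log2 fold change -3.08, SE 0.08, adjusted p = 5.129e-09). It was almost lost in 93-11 and kept a clear level in Nip HS libraries (difference of log2 fold changes -2.20, SE 0.12, limma adjusted p = 3.98e-09). LOC_Os11g02520 had 0.285, 1.15 and 1.09 FPKM in 93-11 HS libraries, against 49.8, 52.9 and 53.3 FPKM in 93-11 normal libraries. In Nip, LOC_Os11g02520 had 2.02, 2.91 and 3.36 FPKM in HS and 68.6, 64.6 and 65.0 FPKM in normal libraries. Its log2 fold changes of -4.88 and -4.17 were not called different (-0.71, adjusted p = 0.01815, limma). The difference for LOC_Os11g02520 was called under rescaling (-1.69, adjusted p = 0.0001204), with a replicate block (adjusted p = 0.007828), without 93-11 HS replicate 2 (-0.84, adjusted p = 0.007522) and without Nip HS replicate 1 (-0.86, adjusted p = 0.005512), all by limma. LOC_Os12g02469 is listed for Nip only, at 0, 0.0210 and 0.0883 FPKM in HS and 24.4, 23.1 and 24.4 FPKM in normal libraries. LOC_Os11g02440 fell more in Nip, where it had 2.78 ± 0.0472 FPKM in HS and 50.1 ± 2.99 FPKM in normal libraries (log2 fold change -3.76), than in 93-11, where it had 2.10 ± 0.359 FPKM in HS and 10.6 ± 1.66 FPKM in normal libraries (log2 fold change -1.91).

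Most of the largest rises lay before the runs, in the first and middle segments. Neighbouring identifiers on each end rose together there. LOC_Os11g02240 had 575, 581 and 597 FPKM in 93-11 HS libraries, against 106, 112 and 109 FPKM in 93-11 normal libraries (limma log2 fold change 2.41, SE 0.04, adjusted p = 1.893e-10). In Nip it stood at 204, 206 and 209.6 FPKM in HS and 33.0, 32.9 and 35.2 FPKM in normal libraries (limma log2 fold change 2.58, SE 0.04, adjusted p = 2.018e-10). It rose in both cultivars, to higher levels in 93-11. LOC_Os11g02250, the next identifier, had 80.4, 75.3 and 71.7 FPKM in 93-11 HS libraries, against 0.324, 0 and 2.40 FPKM in 93-11 normal libraries (limma log2 fold change 5.54, SE 0.38, adjusted p = 1.246e-06). In Nip it had 7.77, 9.46 and 9.54 FPKM in HS and 0, 0.313 and 0.751 FPKM in normal libraries (limma log2 fold change 2.91, SE 0.19, adjusted p = 1.675e-06). Its 6 normal libraries lay between 0 and 2.40 FPKM, so the size of its fold change depends on the pseudocount of 1.

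On chromosome 12, LOC_Os12g02200 and LOC_Os12g02210 rose in both cultivars as well. LOC_Os12g02200 had 134, 132 and 131 FPKM in 93-11 HS libraries, against 50.3, 52.6 and 46.8 FPKM in 93-11 normal libraries, and 151, 150.1 and 161 FPKM in Nip HS libraries, against 30.1, 31.7 and 30.5 FPKM in Nip normal libraries. Its log2 fold change was 1.39 in 93-11 and 2.29 in Nip (difference of log2 fold changes -0.89, SE 0.06, limma adjusted p = 3.862e-08), and its call in 93-11 was lost under rescaling (log2 fold change 0.97). LOC_Os12g02210 had 236, 241 and 236 FPKM in 93-11 HS libraries, against 19.8, 22.2 and 21.4 FPKM in 93-11 normal libraries (limma log2 fold change 3.43, SE 0.05, adjusted p = 1.197e-10). Nip libraries gave 39.8, 40.9 and 41.8 FPKM in HS and 3.71, 3.98 and 4.03 FPKM in normal libraries (limma log2 fold change 3.09, SE 0.05, adjusted p = 6.007e-10). Each chromosome therefore held a pair of adjacent identifiers that rose in both cultivars, 40 numbers apart between the chromosomes.

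**Figure D3:**
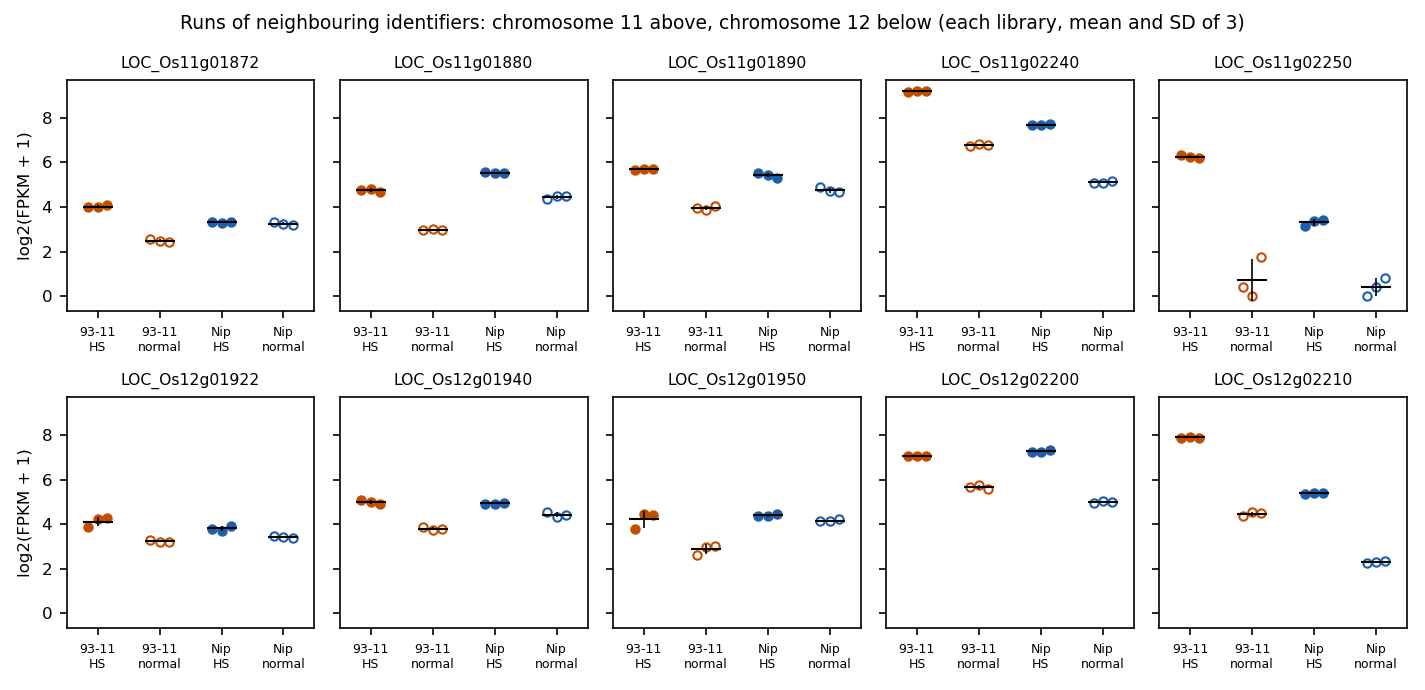
Expression as log2(FPKM + 1) of neighbouring identifiers of chromosome 11 (top row) and those set beneath them of chromosome 12 (bottom row) in 93-11 HS, 93-11 normal, Nip HS and Nip normal libraries. Points are single libraries, filled for HS, and lines give the mean and SD of 3 libraries. The identifiers were chosen after their values were seen, and LOC_Os11g02240 in 93-11 HS libraries, at 584 FPKM on average, is the highest value plotted.

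These neighbours, chosen after their values were seen, were set side by side through the log2 ratio of the chromosome 11 to the chromosome 12 identifier in each library, which does not depend on the scaling of whole libraries except through the pseudocount. LOC_Os11g02240 over LOC_Os12g02200 gave 2.13 ± 0.04 in 93-11 HS and 1.11 ± 0.08 in 93-11 normal libraries, and 0.42 ± 0.04 in Nip HS and 0.13 ± 0.07 in Nip normal libraries (mean ± SD, n = 3 each). The chromosome 11 identifier was thus the higher of these in every group, by most in 93-11 under HS and by least in Nip under normal conditions. LOC_Os11g02250 over LOC_Os12g02210 gave -1.64 ± 0.09 in 93-11 HS and -3.74 ± 0.93 in 93-11 normal libraries, and -2.08 ± 0.12 in Nip HS and -1.89 ± 0.36 in Nip normal libraries. Here the chromosome 12 identifier was the higher in every group.

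A further set of neighbours in the middle segment, also chosen after their values were seen, was called mostly in 93-11. LOC_Os11g01872, LOC_Os11g01880 and LOC_Os11g01890 had log2 fold changes of 1.53, 1.78 and 1.73 in 93-11, and of 0.07, 1.09 and 0.67 in Nip. LOC_Os12g01922, LOC_Os12g01940 and LOC_Os12g01950 had 0.89, 1.19 and 1.35 in 93-11, and 0.40, 0.51 and 0.24 in Nip. All 6 were more positive in 93-11, with differences of 0.49 to 1.46 (adjusted p from 0.003592 for LOC_Os12g01922 to 9.719e-09 for LOC_Os11g01872, limma). Under rescaling this held only for LOC_Os11g01872 (difference 0.65, adjusted p = 0.0001131, limma), and LOC_Os11g01880, LOC_Os12g01922 and LOC_Os12g01940 turned to differences of -0.18, -0.39 and -0.23. Under quantile normalization the differences of LOC_Os11g01880 (0.22), LOC_Os12g01922 (0.28) and LOC_Os12g01940 (0.20) were no longer called. In the first segment, LOC_Os11g01330 had 16.6, 18.5 and 18.0 FPKM in 93-11 HS and 3.82, 3.99 and 3.51 FPKM in 93-11 normal libraries, and LOC_Os12g01360 had 22.6, 26.1 and 23.3 FPKM in 93-11 HS and 6.80, 5.97 and 4.55 FPKM in 93-11 normal libraries. Their ratio changed little between conditions, at -0.42 ± 0.06 in 93-11 HS and -0.49 ± 0.20 in 93-11 normal libraries, and -0.19 ± 0.10 in Nip HS and -0.40 ± 0.15 in Nip normal libraries. This pair too was chosen after its values were seen.

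Other members rose strongly in 93-11. LOC_Os11g01040 had 151, 179 and 158 FPKM in 93-11 HS libraries, against 19.7, 16.3 and 20.6 FPKM in 93-11 normal libraries (limma log2 fold change 3.04, SE 0.09, adjusted p = 6.958e-09). In Nip it stood at 15.1, 15.03 and 17.2 FPKM in HS and 6.25, 6.25 and 6.21 FPKM in normal libraries (limma log2 fold change 1.21, SE 0.07, adjusted p = 5.492e-07). It rose in both cultivars, by more in 93-11. LOC_Os11g02090 had 23.1, 22.8 and 17.8 FPKM in 93-11 HS and 1.87, 1.39 and 2.48 FPKM in 93-11 normal libraries (limma log2 fold change 2.94, SE 0.15, adjusted p = 1.969e-07), but 3.78, 4.01 and 3.08 FPKM in Nip HS and 3.64, 3.82 and 4.21 FPKM in Nip normal libraries (log2 fold change -0.08). LOC_Os12g02050 had 12.2, 13.1 and 11.1 FPKM in 93-11 HS and 0.401, 0.709 and 0.829 FPKM in 93-11 normal libraries (limma log2 fold change 3.00, SE 0.12, adjusted p = 3.997e-08). In Nip, LOC_Os12g02050 had 2.03, 1.15 and 1.26 FPKM in HS and 1.19, 0.310 and 1.49 FPKM in normal libraries, which overlap. LOC_Os12g02830 had 46.9, 44.1 and 45.6 FPKM in 93-11 HS libraries, against 5.72, 5.67 and 5.72 FPKM in 93-11 normal libraries (limma log2 fold change 2.80, SE 0.05, adjusted p = 5.047e-10). In Nip it had 3.72, 3.35 and 4.15 FPKM in HS and 4.87, 5.97 and 5.02 FPKM in normal libraries (log2 fold change -0.41). It was called in 93-11 only, and it lies in the last segment, where most calls were falls.

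Further members rose in Nip. LOC_Os11g01020 had 30.7, 30.6 and 42.1 FPKM in Nip HS libraries, against 8.65, 6.18 and 7.16 FPKM in Nip normal libraries (limma log2 fold change 2.08, SE 0.14, adjusted p = 2.103e-06). LOC_Os12g01010 had 18.8, 22.6 and 22.2 FPKM in Nip HS libraries, against 3.53, 5.81 and 5.87 FPKM in Nip normal libraries (limma log2 fold change 1.89, SE 0.16, adjusted p = 7.851e-06). Both also rose in 93-11, with log2 fold changes of 1.65 and 1.49. LOC_Os11g01869, not listed for 93-11, had 12.4, 13.5 and 13.6 FPKM in Nip HS libraries, against 2.96, 3.85 and 3.46 FPKM in Nip normal libraries (limma log2 fold change 1.68, SE 0.09, adjusted p = 4.184e-07).

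The response of the members was then compared between cultivars. Of 156 members tested in both, 33 fell in both, 9 rose in both and 64 were called in neither. A further 25 rose in 93-11 only and 17 fell in 93-11 only, while 2 rose and 6 fell in Nip only. Over all genes tested, 22.7% rose in 93-11 and 9.69% in Nip, and 27.5% and 17.8% fell. More calls in 93-11 were thus also seen over all genes. The counts by both cultivars were not taken over all genes, so they are not read as particular to the members. By the test of the difference itself (limma interaction term, adjusted p under 0.01), 24 of the 25 and 15 of the 17 differed between the cultivars in that direction, as did the 2 and 5 of the 6. These members were picked by their calls in the same libraries. Their direction was thus largely fixed by that choice, and these counts are a description. Over all 176 members tested for the difference, 117 differed (66.5%, beside 70.6% of all identifiers tested), and 74 by at least 1 on the log2 scale (42.0%, beside 40.5%). Of these 74, 38 were more positive in 93-11 and 36 more negative. Under quantile normalization these numbers were 33 and 29. Under rescaling, which moved the median difference of all identifiers to -0.78, they were 12 and 79, and 12 of the 25 kept a called difference in that direction. No member was called in opposite directions by limma, where 1.69% of the 16847 genes tested in both cultivars were, although 23 members (14.7%, beside 19.1% of all genes) had opposite signs with an unadjusted p under 0.05 in both. The shares of members that differed were near those of all genes.

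Some members fell in Nip and were not called, or not tested, in 93-11. LOC_Os11g02300 had 79.1, 82.2 and 78.4 FPKM in 93-11 HS and 41.9, 41.6 and 45.5 FPKM in 93-11 normal libraries. In Nip, LOC_Os11g02300 had 26.8, 30.1 and 27.7 FPKM in HS and 73.9, 71.4 and 81.0 FPKM in normal libraries (difference of log2 fold changes 2.27, SE 0.08, limma adjusted p = 4.591e-11). LOC_Os12g02250 had 80.0, 85.8 and 79.1 FPKM in 93-11 HS and 60.4, 61.4 and 64.3 FPKM in 93-11 normal libraries. In Nip, LOC_Os12g02250 had 29.3, 27.8 and 29.1 FPKM in HS and 95.6, 97.4 and 101 FPKM in normal libraries (difference of log2 fold changes 2.13, SE 0.06, limma adjusted p = 6.164e-12). Both fell in Nip (log2 fold changes -1.39 and -1.74), and neither was called in 93-11. The call of LOC_Os11g02300 in Nip was lost under rescaling (log2 fold change -0.90). LOC_Os11g02100 had 0.628, 0.811 and 0.986 FPKM in Nip HS and 15.5, 13.9 and 13.1 FPKM in Nip normal libraries, and stayed below 2 FPKM in all 93-11 libraries. LOC_Os11g02200 had 60.7, 74.5 and 131 FPKM in Nip HS libraries, against 211, 194 and 221 FPKM in Nip normal libraries, and 42.4 ± 1.85 FPKM in 93-11 HS and 44.2 ± 2.04 FPKM in 93-11 normal libraries. Its Nip HS libraries are uneven, and its call in Nip was lost under quantile normalization (log2 fold change -0.78) and under rescaling (-0.80).

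LOC_Os11g01530 and LOC_Os12g01530 rose on both chromosomes in 93-11 and were among the highest members. LOC_Os11g01530 had 709.8, 671 and 714 FPKM in 93-11 HS libraries, against 253, 241 and 257 FPKM in 93-11 normal libraries (limma log2 fold change 1.48, SE 0.04, adjusted p = 5.672e-09). LOC_Os12g01530 had 326, 338 and 317 FPKM in 93-11 HS libraries, against 85.9, 88.1 and 90.5 FPKM in 93-11 normal libraries (limma log2 fold change 1.88, SE 0.04, adjusted p = 1.049e-09). In Nip, LOC_Os11g01530 had 323, 320.1 and 342 FPKM in HS and 472, 459 and 470.2 FPKM in normal libraries, and LOC_Os12g01530 had 215, 220.0 and 222 FPKM in HS and 204, 207 and 206 FPKM in normal libraries. Neither was called in Nip, and both differed between the cultivars (differences of 1.98 and 1.79, adjusted p = 3.485e-12 and 2.371e-12, limma). Under quantile normalization these differences were 0.74 and 0.85, still called. The chromosome 11 identifier was the higher in every library. Its log2 ratio to the chromosome 12 identifier was 1.09 ± 0.09 in 93-11 HS and 1.49 ± 0.05 in 93-11 normal libraries, and 0.58 ± 0.04 in Nip HS and 1.18 ± 0.03 in Nip normal libraries. The ratio was lower under HS in both cultivars, by 0.40 in 93-11 and by 0.59 in Nip, and the 3 ratios under HS did not overlap with the 3 under normal conditions (exact two-sided permutation p = 0.1, the smallest that 3 against 3 allow). The call of LOC_Os11g01530 in 93-11 was lost under quantile normalization (log2 fold change 0.91).

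**Figure D4:**
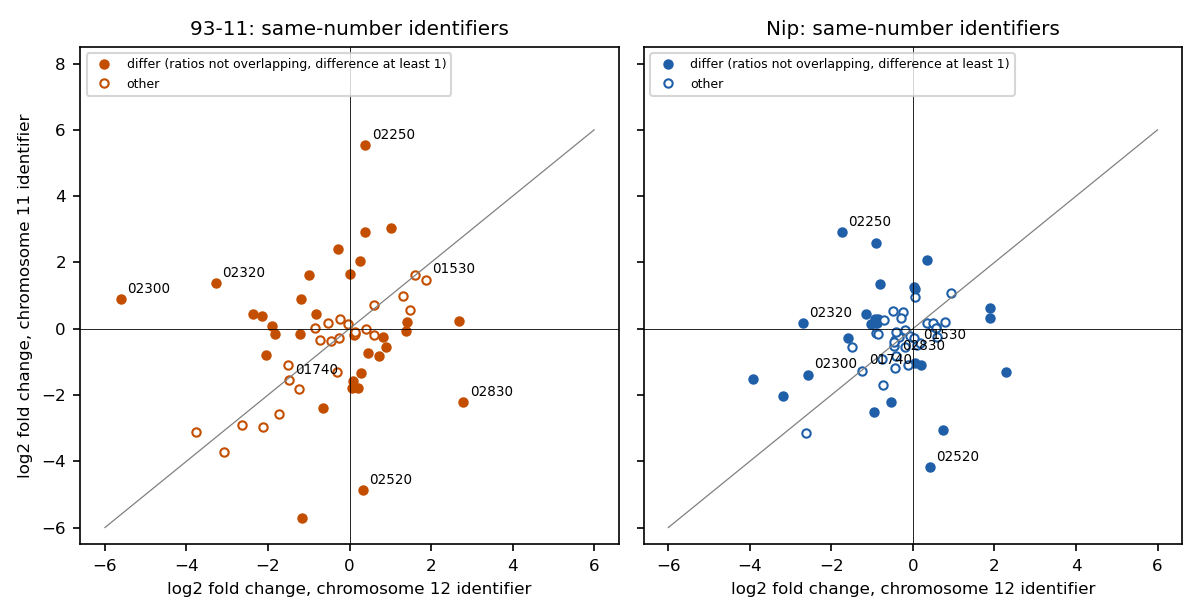
Log2 fold change of HS over normal of the chromosome 11 identifier (vertical axis) against that of the chromosome 12 identifier of the same number (horizontal axis), in 93-11 (left) and Nip (right), both on the log2(FPKM + 1) scale. Each point is a same-number pair and the diagonal marks equal response. Filled points, 32 of 58 in 93-11 and 25 of 59 in Nip, differ by at least 1 with log2 ratios that do not overlap between HS and normal libraries.

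Over all same-number identifiers, the responses on the chromosomes often differed, as the plot of one against the other shows. With at least one identifier tested, 58 pairs could be compared in 93-11 and 59 in Nip. The log2 ratio of chromosome 11 to chromosome 12 changed by at least 1 between conditions, with no overlap, in 32 pairs in 93-11 (55.2%) and 25 in Nip (42.4%). Among same-number identifiers of the chromosomes beyond LOC_Os11g06000 and LOC_Os12g06000, outside the duplicated ends, these shares were 53.2% of 314 in 93-11 and 37.2% of 363 in Nip. In the next stretch of both arms they were 53.8% of 91 in 93-11 and 38.1% of 84 in Nip. Where both identifiers were tested, 10 of 35 pairs in 93-11 were called in the same direction (1 up, 9 down), 2 in opposite directions, 7 on chromosome 11 only, 10 on chromosome 12 only and 6 on neither. In Nip 5 of 41 pairs fell on both, 2 were called in opposite directions, 11 on chromosome 11 only, 6 on chromosome 12 only and 17 on neither. Among the identifiers outside, 19 of 141 pairs in 93-11 were called in the same direction and 20 in opposite directions, and 5 and 4 of 171 in Nip. In the next stretch these were 4 and 3 of 40 in 93-11, and 2 and 3 of 50 in Nip. On the log2(FPKM + 1) scale, levels lay within 1 of each other in 18 pairs in 93-11 HS (31.0%) and 20 in 93-11 normal libraries (34.5%). In Nip these were 19 pairs in HS (32.2%) and 20 in normal libraries (33.9%). The pseudocount draws low levels together, so some of these pairs lay more than 2-fold apart in FPKM. LOC_Os11g01140 and LOC_Os12g01140, at 1.92 and 0.584 FPKM in 93-11 HS libraries, are such a pair. Outside, these shares were 27.1% in 93-11 HS, 20.4% in 93-11 normal, 19.0% in Nip HS and 16.8% in Nip normal libraries. In the next stretch they were 27.5% in 93-11 HS, 23.1% in 93-11 normal, 32.1% in Nip HS and 27.4% in Nip normal libraries. Whether the ends differ in these shares from the next stretch or from the identifiers outside was not tested. Spearman's rho of the responses across pairs was 0.26 in 93-11 (n = 58) and 0.16 in Nip (n = 59), against -0.08 and -0.13 in the identifiers outside. In the next stretch rho was 0.11 in 93-11 and 0.01 in Nip. Pairs share their libraries and are not replicates.

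The pairs that differed most in 93-11 were chosen for that difference, so their values are a description. The difference in log2 fold change, chromosome 11 minus chromosome 12, was 6.48 (standard error 0.05) between LOC_Os11g02300 and LOC_Os12g02300. It was -5.21 (standard error 0.24) between LOC_Os11g02520 and LOC_Os12g02520, and LOC_Os12g02520 stayed below 1 FPKM in 93-11 and was not tested. It was 5.15 (standard error 0.51) between LOC_Os11g02250 and LOC_Os12g02250, and -5.00 (standard error 0.12) between LOC_Os11g02830 and LOC_Os12g02830. In Nip, the pairs of LOC_Os11g02250 and of LOC_Os11g02520 were again among the 4 largest, at 4.64 and -4.58, beside those of LOC_Os11g02100 and LOC_Os11g02200. In 93-11, LOC_Os11g02830 fell (log2 fold change -2.21) while LOC_Os12g02830 rose. Their log2 ratio was -4.90 ± 0.16 in 93-11 HS and 0.11 ± 0.14 in 93-11 normal libraries, and -0.42 ± 0.04 in Nip HS and 0.00 ± 0.16 in Nip normal libraries, so that same-number identifiers at like levels in 3 groups stood far apart in the group of 93-11 under HS.

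Of 49 same-number pairs seen in both cultivars, the higher identifier differed between cultivars in 2 pairs under HS and in 0 under normal conditions. This needed a log2 ratio of at least 1 each way, on the log2(FPKM + 1) scale. For LOC_Os11g02300 over LOC_Os12g02300 the log2 ratio under HS was 3.19 in 93-11 and -1.60 in Nip, with LOC_Os12g02300 of the high run at 7.88 FPKM in 93-11 HS and 87.6 FPKM in Nip HS libraries. For LOC_Os11g02570 over LOC_Os12g02570 it was 1.37 in 93-11 and -2.14 in Nip. LOC_Os11g02570 had 12.3 ± 1.55 FPKM in 93-11 HS and 2.29 ± 0.694 FPKM in 93-11 normal libraries, and 2.69 ± 0.486 FPKM in Nip HS and 0.552 ± 0.0829 FPKM in Nip normal libraries. LOC_Os12g02570 had 4.15 ± 0.269 FPKM in 93-11 HS and 3.29 ± 0.304 FPKM in 93-11 normal libraries, and 15.2 ± 0.584 FPKM in Nip HS and 14.9 ± 0.981 FPKM in Nip normal libraries. The chromosome 11 identifier rose in both cultivars (log2 fold changes 2.04 and 1.24), and that of chromosome 12 was called in neither. A pair that moved alike was chosen after its values were seen. LOC_Os11g01740 had 2.07 ± 0.457 FPKM in 93-11 HS and 7.94 ± 0.734 FPKM in 93-11 normal libraries, and LOC_Os12g01740 had 1.36 ± 0.108 FPKM in 93-11 HS and 5.67 ± 0.650 FPKM in 93-11 normal libraries, and the log2 fold changes were -1.55 and -1.49 in 93-11 and -1.27 and -1.24 in Nip.

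**Figure D5:**
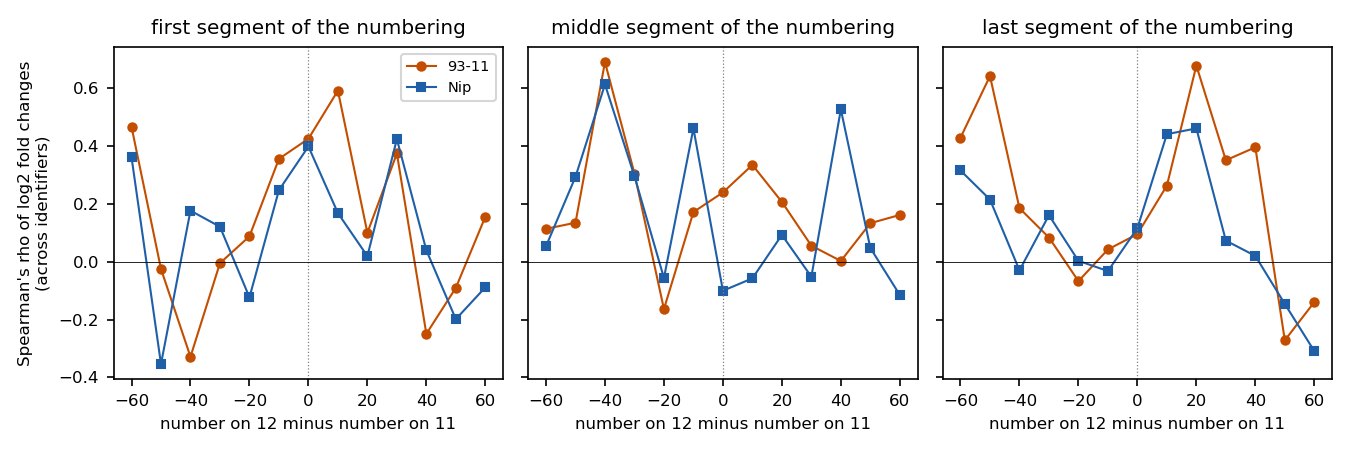
Spearman's rho, across identifiers, of the log2 fold changes of chromosome 11 identifiers and of chromosome 12 identifiers whose number differs by the shift on the horizontal axis, in the first, middle and last segment of the numbering. Circles stand for 93-11 and squares for Nip. In the middle segment rho was 0.69 in 93-11 and 0.61 in Nip at a shift of -40.

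Since the same number does not mark a copy, identifiers were also set side by side at 13 shifts of the number, from -60 to 60, within each segment. In the first segment, rho of the responses was 0.43 in 93-11 (n = 23) and 0.40 in Nip (n = 25) at a shift of 0. It was higher at shifts of 10 (0.59) and -60 (0.47) in 93-11, and at a shift of 30 (0.42) in Nip. In the middle segment it was 0.24 in 93-11 (n = 17) and -0.10 in Nip (n = 16) at a shift of 0. At a shift of -40 it was 0.69 in 93-11 and 0.61 in Nip (n = 19 each), the highest of the 13 shifts in both, and this is the shift between the LOC_Os11g02240 and LOC_Os12g02200 neighbourhoods. In the last segment it was 0.10 in 93-11 and 0.12 in Nip at a shift of 0 (n = 18 each). There the highest values were 0.68 at a shift of 20 in 93-11 (n = 14) and 0.46 in Nip (n = 16) at the same shift. With so few identifiers at each shift and the highest picked from 13, these are descriptions of the numbering and not a pairing of copies.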

How the data were processed

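RNA-seq of 12 libraries, 3 in each of 4 groups, was analysed as deposited FPKM values. The authors prepared stranded poly(A) libraries and, per the study's methods, used STAR to align each cultivar's reads to that cultivar's genome, allowing up to 20 loci per read, and counted reads with featureCounts 1.6.3 for DESeq2. The submitters' processing notes list HISAT2 2.0.4, StringTie 1.3.4d and DESeq2 instead. Which of these gave the FPKM values, and how LOC_Os identifiers were placed on the 93-11 genome, is not given in the sources used here. How reads that match both copies of a gene were shared out is therefore unknown.

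Groups and replicate numbers came from the sample labels. Each cultivar was fitted alone with limma 3.58.1 (R 4.3.3) on log2(FPKM + 1) with a trended prior. Genes had to reach 1 FPKM in 3 or more libraries, and p-values were adjusted over all genes tested. The difference between cultivars was the interaction term of a fit of all 12 libraries. Calls used the study's thresholds, an adjusted p below 0.01 and a change of 1 or more on the log2 scale. Log2 ratios of same-number identifiers were compared by exact permutation tests, whose smallest p is 0.1. The fits were tested on simulated data. Summaries were made with Python 3.11.15.

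The members were set by their numbers alone, but they and the lists were fixed with earlier results of these data known. Named members were, per cultivar and end, the 3 largest rises and the 3 largest falls among called members with a mean of at least 5 FPKM and no overlap, and the 4 highest in level. Named pairs were the 4 of largest difference per cultivar, those whose higher identifier differed between cultivars, and the 4 of highest summed FPKM. Pairing of copies by protein match was planned, but none of the LOC_Os identifiers is in the reference table used here (0 matched), so same-number identifiers were used. Alternatives were quantile normalization, rescaling to a sum of 1000000, a pseudocount of 0.1, no filter, a fit with a replicate block, leaving out each replicate, and summing same-number identifiers. Leaving out the high runs was chosen after seeing the data.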

Additional observations from a re-analysis of the deposited data

Results flagged for a closer look

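The response to HS differed between the cultivars, by the limma interaction term on log2(FPKM + 1) (adjusted p under 0.01 and at least 1 in size), for 20 of the 37 members the rules name. Over all identifiers tested this share was 40.5%, and over all members tested 42.0%. The rules picked members for large changes or high levels in these same data, so the count of 20 is a description. All differences are the log2 fold change in 93-11 minus that in Nip.

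On chromosome 11 the more positive responses in 93-11 were those of LOC_Os11g02090 (3.02), LOC_Os11g02250 (2.63), LOC_Os11g02300 (2.27), LOC_Os11g02100 (2.24), LOC_Os11g01530 (1.98), LOC_Os11g02440 (1.85), LOC_Os11g01040 (1.83), LOC_Os11g02200 (1.24) and LOC_Os11g02320 (1.19). On chromosome 12 they were those of LOC_Os12g02830 (3.20), LOC_Os12g02050 (2.65), LOC_Os12g02250 (2.13) and LOC_Os12g01530 (1.79). They reached these values in different ways. LOC_Os11g02090, LOC_Os12g02050 and LOC_Os12g02830 were called up in 93-11 only, LOC_Os11g01040 and LOC_Os11g02250 in both cultivars, and LOC_Os11g02300 and LOC_Os12g02250 were called down in Nip only.

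The more negative responses in 93-11 were mostly those of the high runs. On chromosome 11 they were LOC_Os11g02350 (-3.99), LOC_Os11g02369 (-2.45), LOC_Os11g02830 (-1.38) and LOC_Os11g02424 (-1.13). On chromosome 12 they were LOC_Os12g02300 (-3.03), LOC_Os12g02980 (-2.20) and LOC_Os12g02340 (-1.17). Of these, LOC_Os11g02830 and LOC_Os12g02980 lie outside the runs.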

How the results depend on the processing

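The counts of members called, of members that differed between cultivars and of same-number pairs that differed were recomputed under each alternative. In 100 of 102 such comparisons the count stayed within 1.5 times that of the report. The exceptions were the rises in Nip, 13 in the report, 23 with a pseudocount of 0.1 and 35 after rescaling to a sum of 1000000. Over all genes tested in Nip, the share that rose in these settings was 9.69%, 13.3% and 23.5%. The difference between cultivars of LOC_Os12g02210 (0.34) turned to -0.52 under quantile normalization and to -0.64 under rescaling, and that of LOC_Os11g02570 (0.79) to -0.021 under rescaling. The cause was not tested. The called difference of LOC_Os11g02250 (2.63) was lost with a pseudocount of 0.1 (2.54, adjusted p = 0.1074, limma) and under rescaling (adjusted p = 0.01082, limma). Those of LOC_Os11g02200 and LOC_Os11g02320 were lost under rescaling (0.31 and 0.37), and that of LOC_Os11g02200 also under quantile normalization (0.57, adjusted p = 0.1048, limma). With a pseudocount of 0.1, those of LOC_Os11g02570 and LOC_Os12g02210 were lost (0.32 and 0.13). Rescaling called differences for LOC_Os12g02330 (-0.87) and LOC_Os11g02520 (-1.69).

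With each library left out in turn, 36 to 39 members rose and 59 to 62 fell in 93-11, and 14 to 15 rose and 41 to 45 fell in Nip. Members that differed between cultivars then numbered 110 to 116, and 68 to 74 by at least 1. Same-number pairs that differed numbered 32 to 34 in 93-11 and 26 to 27 in Nip. The called difference of LOC_Os11g02240 (-0.17) was lost without some of the libraries, at values from -0.18 to -0.15, and that of LOC_Os11g02570 at values from 0.71 to 0.74. Same-number identifiers summed before the fit gave 32 rises and 43 falls of 148 in 93-11, and 9 and 32 of 145 in Nip. Without the high runs, 52 members fell in 93-11 and 35 in Nip, against 60 and 44 with them. By segment, without the runs, these were 18 of 64, 8 of 53 and 26 of 56 tested in 93-11. In Nip they were 7 of 64, 11 of 55 and 17 of 57. Over all genes tested, 27.5% fell in 93-11 and 17.8% in Nip.

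With the replicate number as a block, 36 members rose and 60 fell in 93-11, and 13 rose and 44 fell in Nip, the same counts as without it. The block called a difference between cultivars for LOC_Os11g02520 (-0.71, adjusted p = 0.007828, limma). Whether the numbers pair the samples was not settled. Deviations of same-numbered HS and normal libraries correlated only weakly, at -0.06 to 0.05 in 93-11 and at 0.03 to 0.04 in Nip. In Nip every HS library correlated best with the normal library of its own number, and in 93-11 this did not hold. Of the members, 247 were listed in 93-11 and 182 passed the filter on low FPKM, and 240 and 185 in Nip. The FPKM values carry no read counts, so that the depth behind them is unknown.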
